A study of Homo sapiens with 2 samples.

Results

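Exon rows that lie in duplicated runs were chosen from their coordinates alone. On each chromosome and strand the rows were put in transcript direction, and every run of 3 consecutive rows was taken in which the rows did not overlap, were each at least 40 bp long and lay less than 10 kb apart. A row became a member when the 3 ordered lengths of a run that held it also occurred in a run at another, non-overlapping place. This gave 37800 member rows among 239322 rows (15.8%), from 8295 recurring sets of 3 lengths among 150221 runs. The rows were counted in Huh-7, an established line of human liver cancer (hepatocellular carcinoma) cells, after 24 h with 0.1% DMSO (control) or with 0.1 mM BS008, an amiloride derivative. Each condition had 1 library, so no difference has a replicate check and none was tested. Over all rows the control library held 55476654 counts and the BS008 library 53578432, and all intervals given here cover counting error only.

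Segmental duplications are stretches of a genome that exist in several nearly identical copies, often on the same chromosome, and they carry whole genes with their introns. Paralogous genes that arose from older duplications often keep the lengths of their coding exons while their introns drift apart in length and sequence. A short read from a young duplication can fit several copies equally well, whereas a read from old paralogs usually fits only 1. Equal lengths can also recur by coincidence, or through repeated domains encoded by exons of a fixed length.

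Rows at the same position of matching runs were joined into 13883 copy sets, and the counts of a set were summed. Of these sets, 9611 (69.2%) held 2 rows, 2673 held 3 rows, 1454 held 4 to 9 rows and 145 held 10 or more. Consecutive rows matched between the same 2 places formed a chain, and the longest chain had 42 rows. The members were split by the gaps between rows, taken as introns. In 7026 members (18.6%) the introns of a matched run were within 10% of each other, here called matched introns, and in the other 30774 (81.4%) only the exon lengths were shared. Copy sets rebuilt from matched introns alone lay on 1 chromosome in 2081 of 2424 cases (85.9%), against 2765 of 13883 (19.9%) for all copy sets.

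Members were shorter than the other rows, with a median length of 118 bp against 145 bp. Their lengths were a multiple of 3 in 43.4% of cases, against 37.1% of the other rows. The rule itself acts on row lengths, and the other rows had no minimum of 40 bp. These differences in length are therefore not independent of how the members were chosen. At least 1 read was counted in either library on 66.9% of the members and on 71.0% of the other rows. Among members with matched introns this share was 58.7%. Members held 8.38% of all counts in the control library and 7.87% in the BS008 library. Those with matched introns held 0.90% and 1.03%, respectively. Of the members, 424 (1.12%) overlapped another row on either strand. The rule leaves out overlapping rows within a run, so a low share was in part set by the choice of members.

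Members with matched introns were spread unevenly over the chromosomes. They made up 51.4% of the 810 rows on chromosome Y. Next came chromosome 16 with 7.29%, chromosome 15 with 6.86%, chromosome X with 6.36% and chromosome 7 with 5.23%. On chromosomes 3 and 20 they made up 0.39% and 0.50%.

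Counts were divided by the library total to give CPM, and 0.5 was added to both values before BS008 was set against control as a log2 ratio. Rows that reached 10 counts in a library were used, and a row was called changed when it was at least 2-fold higher or lower. Of the 19114 members with enough reads, 614 (3.21%) were higher and 734 (3.84%) lower in the BS008 library. With TMM factors in place of library totals these counts were 655 and 649, so the excess of lower rows depended on the scaling. Over all rows of the files, 3.73% were higher and 3.79% lower, so the members as a whole were close to the background. The median absolute log2 ratio was 0.34 for the members and 0.34 for all rows.

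The classes of members differed in this respect. With matched introns, 250 of 2855 rows (8.76%) were higher and 153 (5.36%) lower, in sum 14.1% against 7.52% of all rows. Without them, 364 of 16259 (2.24%) were higher and 581 (3.57%) lower, in sum 5.81%. Among rows with matched introns the changed share was 8.52% in chains of 3 rows, 12.6% in chains of 4 and 15.7% in chains of 5 or more, and among the others it was 5.44%, 5.71% and 6.24%. Rows with matched introns differed by chromosome as well. Chromosome 16 had the most rows with enough reads, and 102 of its 557 were changed (18.3%). The changed share was higher on chromosome 6 (35 of 116, 30.2%), chromosome 19 (11 of 44), chromosome X (21 of 87, 24.1%) and chromosome 2 (38 of 179, 21.2%). It was 8.17% on chromosome 1 (38 of 465), and on chromosome 11 none of 26 rows was changed. No test compares these shares, because rows of a chain share a transcript and are not independent.

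**Figure D1:**
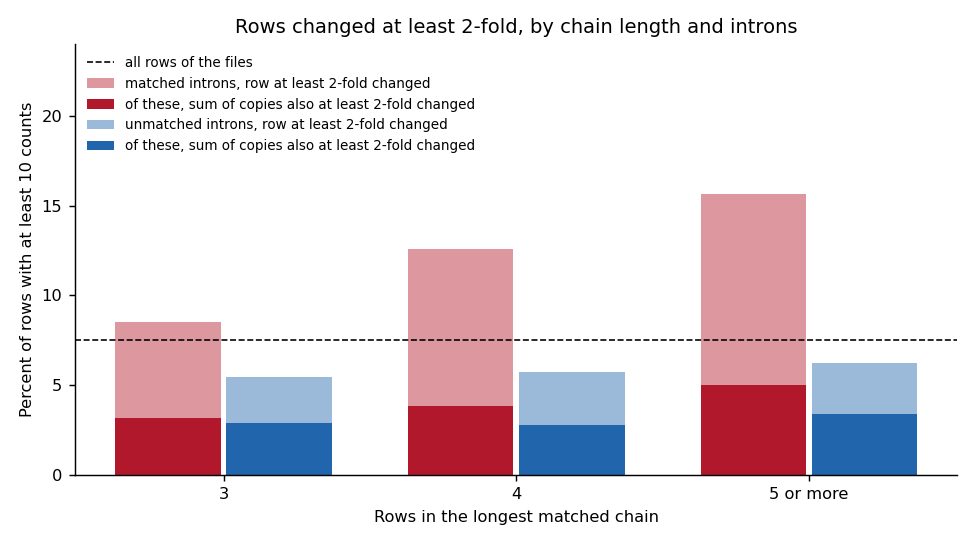
Percent of member rows with at least 10 counts that changed at least 2-fold (pale bars), by the number of rows in the longest matched chain, for matched (red) and unmatched (blue) introns. The dark part of a bar is the share whose summed copies changed at least 2-fold as well, and the dashed line is the 7.52% of all rows. The pale bars with matched introns reach 15.7% while their dark parts stay below the dashed line.

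Summing the copies removed about as many calls as it kept. Of the 1348 changed members, 716 (53.1%) belonged to a copy set whose sum changed less than 2-fold. This share was 272 of 403 (67.5%) with matched introns and 444 of 945 (47.0%) without. The sums themselves were at least 2-fold higher in 261 and lower in 327 of the 10632 copy sets with enough reads. Over all rows of the files, 4902 of 131330 were higher (3.73%) and 4977 lower (3.79%). With TMM factors 293 sets were higher and 284 lower, so the excess of lower sets depended on the scaling. The median absolute difference between a row and its sum was 0.24 on the log2 scale with matched introns and 0.13 without. A row that holds nearly all reads of its set must follow the sum. These comparisons of rows with sums were not limited to sets with reads spread over several copies.

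**Figure D2:**
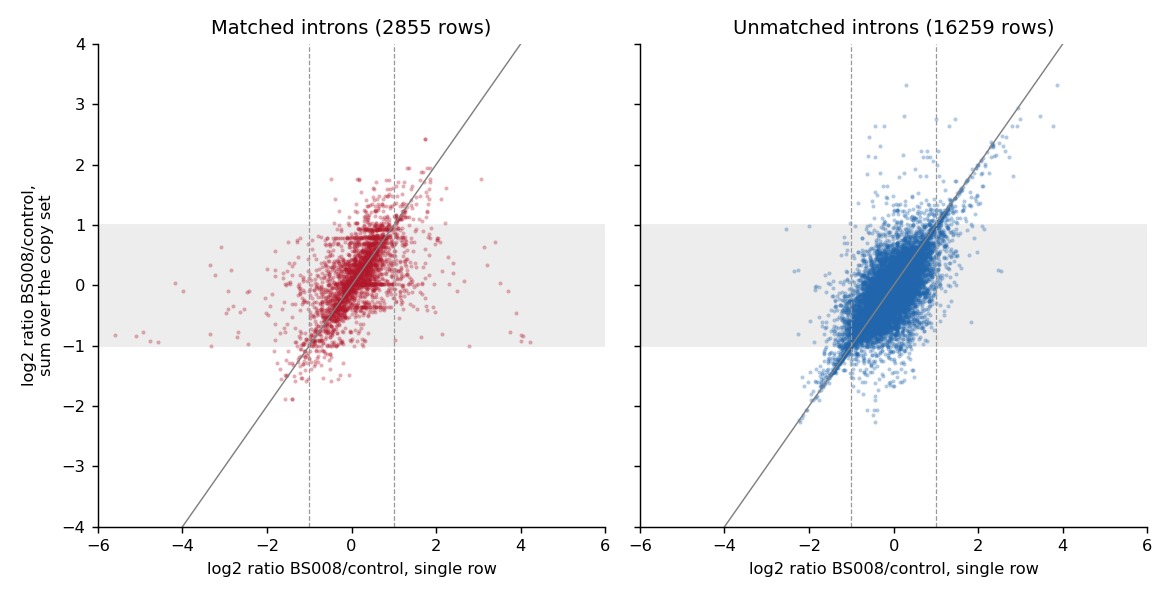
The log2 ratio of each member row (horizontal) against the log2 ratio of its summed copy set (vertical), for matched introns (2855 rows, red) and unmatched introns (16259 rows, blue). The grey band marks sums changed less than 2-fold, dashed lines mark 2-fold for a row, and the diagonal marks equal values. With matched introns, 24 rows have ratios beyond 3 in either direction, and 22 of them lie inside the grey band.

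The 2 rows of a matched pair were also compared directly, where each had at least 100 counts in 1 of the libraries. With matched introns, the log2 ratios of both copies differed by at least 1 in 141 of 437 pairs (32.3%), and in 50 pairs (11.4%) 1 copy was at least 2-fold higher while the other was at least 2-fold lower. In 44 of these 50 pairs the sum of both changed less than 2-fold. Without matched introns, the ratios differed by at least 1 in 394 of 2411 pairs (16.3%), and opposite changes were seen in 6 pairs (0.25%). Of the pairs with matched introns on 1 chromosome, 41.4% of 215 pairs at least 1 Mb apart differed by at least 1, against 26.6% of 177 nearer pairs. Pairs share rows with one another, so these are descriptions without a test.

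The share of a copy set's reads that fell on each copy was followed in sets with at least 20 reads in each library. In 2733 of 9419 sets (29.0%) the share of a copy moved by at least 10 percentage points, and in 2545 of these the sum changed less than 2-fold. Such sums were the usual state. Of all 10632 copy sets with enough reads, only 261 were at least 2-fold higher and 327 lower. In the sets rebuilt from matched introns, the share moved in 447 of 1062 (42.1%), and in 401 of these the sum changed less than 2-fold. Of the 1289 such sets with enough reads, only 70 sums were higher and 45 lower. In sets near the minimum of 20 reads, a move of 10 points can lie within counting error. The shares of moved sets are therefore not compared. Over chains of at least 5 rows and 1000 reads, in which counting error is small, the share of a place moved by at least 10 points in 79 of 265 chains with matched introns (29.8%) and in 117 of 835 chains without (14.0%). Many of the latter had over 90% of their reads on 1 place in the control library. Among chains with a control share of 10 to 90%, a range chosen after the data were seen, the share moved in 75 of 221 chains with matched introns (33.9%) and in 111 of 334 without (33.2%), with median moves of 7.05 and 7.01 points. The lower share of moved chains without matched introns was therefore not seen in this range. Here a chain counted as having matched introns when any of its runs had them. Chains share rows with one another, and unequally so in the 2 kinds. The 5370 row entries of the 221 chains came from 1697 different rows, and the 4400 of the 334 chains from 3628.

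**Figure D3:**
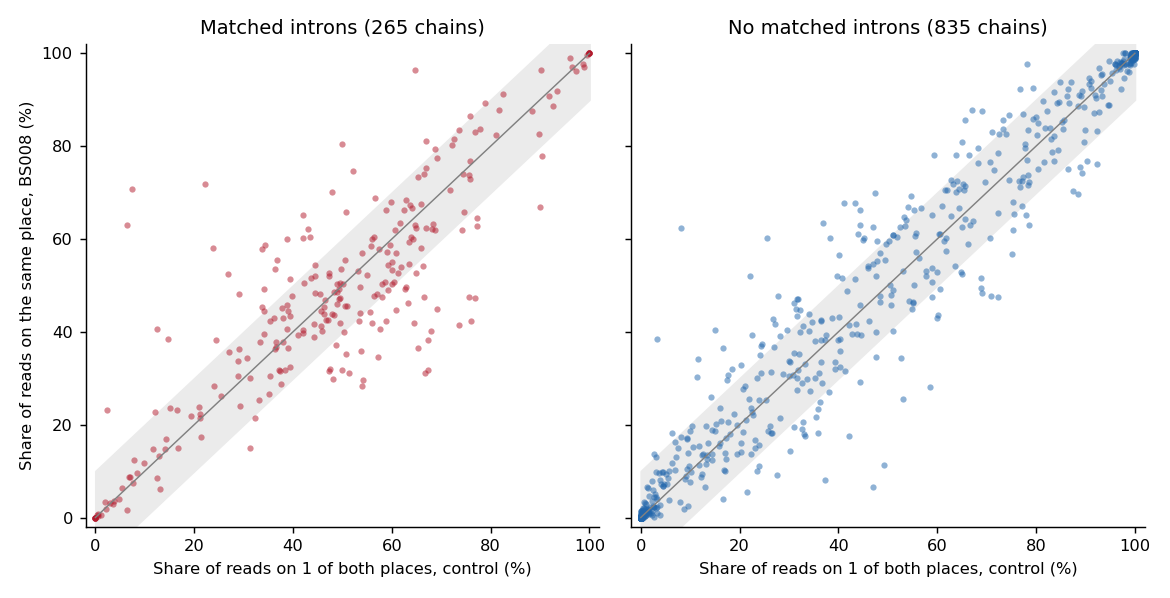
Share of a chain's reads that fell on 1 of its 2 places in the control (horizontal) and BS008 library (vertical). Chains have at least 5 rows and 1000 reads over both libraries together, with matched introns in any run (265, red) or in none (835, blue). The grey band marks changes under 10 percentage points, and 79 red and 117 blue chains lie at or beyond its edge. Of the chains with a control share of 10 to 90%, 221 are red and 334 blue.

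The largest gap between a row and its sum was found on chromosome 7. The 75 bp row on the plus strand from 72606991 to 72607065 had 12 reads in the control library and 687 in the BS008 library (log2 ratio 4.22). Its copy on the minus strand from 74615371 to 74615445 went from 1320 to 28 reads (-4.57), and that on the plus strand from 74160676 to 74160750 from 322 to 110 (-1.30). The summed copies had 1654 and 825 reads (log2 ratio -0.93). The first copy thus held 0.73% of the reads in the control library and 83.3% in the BS008 library. Of the 18 rows of this chain, only rows 9 to 16 were at least 2-fold higher at the first place, with log2 ratios of 2.15 to 4.22. Those of rows 2 to 8 were between -0.30 and 0.32 and that of row 17 was 0.40. Both end rows were lower there, row 1 with 76 and 19 reads (-1.13) and row 18 with 309 and 124 (-1.11). Summed over the first place and that on the minus strand, the rows had log2 ratios of -1.27 to 2.92. Of these 18 sums, 3 were at least 2-fold higher and 2 lower. Over all 18 rows, the other 2 places were both lower in the BS008 library. Reads fell from 9102 to 2175 at the other plus-strand place and from 10854 to 3097 on the minus strand. Of the 18 sums of these 2 places, 9 were at least 2-fold lower, down to -4.97, and 0 were higher.

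Chromosome 16 gave the next, in a chain of 30 rows at 3 places. The 120 bp row from 16381600 to 16381719 fell from 1564 to 58 reads (log2 ratio -4.18), and its copy from 18518131 to 18518250 on the other strand rose from 118 to 1572 (3.51). The copy from 14982953 to 14983072 had 917 and 961 reads, and the sum was 2599 in the control library and 2591 in the BS008 library (log2 ratio 0.05). In this row the shares of the first 2 copies went from 60.2% to 2.24% and from 4.54% to 60.7%. Most rows of the chain did not move so far. At the place from 16330758 to 16388667, 6 of 30 rows were at least 2-fold lower and 3 were higher, and at that from 18511183 to 18569113, 6 were higher and 3 lower. Over all 30 rows these places had log2 ratios of -0.50 and 0.62, and the place from 14932264 to 14990013 had 0.01. At this last place 3 of 30 rows were at least 2-fold lower, down to -2.42, and 0 were higher.

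Exchanges between only 2 copies were seen on chromosome 1. The 96 bp row from 1577267 to 1577362 had 458 reads in the control library and 28 in the BS008 library, and its copy from 1640477 to 1640572 had 66 and 773. Their log2 ratios were -3.10 and 3.14, and that of the sum was 0.64. Both neighbouring rows of this chain moved the same way. Over the 3 rows, the place at 1640233 to 1641079 held 24.6% (95% Wilson interval 22.5 to 26.8%) of the reads in the control library and 90.2% (88.9 to 91.3%) in the BS008 library.

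Several further sets of this kind lay on chromosome 16. The 61 bp row from 16442384 to 16442444 fell from 466 to 20 reads, and its copy from 15043907 to 15043967 rose from 39 to 570, with a log2 ratio of 0.34 for the sum of 7 copies. Along the 4 rows of this chain the gap between both places widened in transcript direction. At the place from 15039431 to 15043967 the log2 ratios were -0.57, 0.95, 2.40 and 3.21. At the place from 16437902 to 16442444 they were 0.10, -0.64, -1.62 and -3.35. Those of the sum of both were -0.18, 0.05, 0.21 and 0.26.

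In another set of chromosome 16, with 10 copies, the 100 bp row from 30243069 to 30243168 fell from 433 to 32 reads. The copy from 22538887 to 22538986 rose from 33 to 306 and that from 21422563 to 21422662 from 32 to 101. The sum had 569 and 511 reads (log2 ratio -0.10). In a further set of chromosome 16, with 3 copies, the 153 bp row from 15021064 to 15021216 fell from 150 to 16 reads. The copy from 16419715 to 16419867 went from 122 to 299 and that from 2155323 to 2155475 from 42 to 58. The sum of these 3 copies had 314 and 373 reads (log2 ratio 0.28). Here only rows 4 and 5 of the 14 rows of the chain were at least 2-fold lower at the first place.

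A chain of 8 rows on the plus strand of chromosome 16 divided into 2 stretches. The first place ran from 29468953 to 29475661 and the second from 30208295 to 30215006. In the 3 leading rows, reads rose from 74 to 261, from 69 to 288 and from 19 to 150 at the first place, and fell from 337 to 34, from 349 to 25 and from 216 to 11 at the second. The sums of these rows had log2 ratios of -0.40, -0.34 and -0.43. In the other 5 rows both places were lower in the BS008 library, with sums between -1.34 and -0.90, and the first place kept between 79.9% and 98.8% of the reads in both libraries.

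The 12 rows of a chain on the minus strand of chromosome 8, of which 10 had matched introns, showed a division at the other end. In the first 9 rows in transcript direction the share of the place from 145486352 to 145489060 was between 70.6% and 93.6% in both libraries. In the last row, 108 bp long, this place went from 30 to 296 reads and the other, from 145317299 to 145317406, from 246 to 25. The row before it, 85 bp long, went from 17 to 211 and from 174 to 14. The sums of both rows had a log2 ratio of 0.25 each, near the 0.13 to 1.03 of the remaining rows. Of all 12 rows, 3 were at least 2-fold higher at the place from 145486352 to 145489060 and 2 were lower at the other. Of the 12 sums, 1 was at least 2-fold higher.

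On chromosome X, 2 places on opposite strands, from 51927919 to 51932690 and from 51807597 to 51812368, were lower together. Over 9 rows they had 5476 reads in the control library and 2152 in the BS008 library (log2 ratio -1.29). Row 6, 80 bp long, had 24 and 130 reads at the first place but 263 and 16 at the second, and row 7 had 23 and 74 against 458 and 108. In these rows the first place was at least 2-fold higher, while the sums had log2 ratios of -0.81 and -1.23. The copy set of row 6 also held a row from 51640643 to 51640722, with 566 and 298 reads, and the log2 ratio over its 4 copies was -0.85.

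Another chain of chromosome 7, with 5 rows, was chosen after its values were seen, for its large move in share. At the first place, from 5942292 to 5952585, reads rose from 401 to 1091, and at the second, from 6851583 to 6861995, they fell from 1407 to 427. The share of the first place went from 22.2% (20.3 to 24.2%) to 71.9% (69.6 to 74.1%), and the sum had a log2 ratio of -0.20. Every row moved this way, with ratios of 0.92 to 1.73 at the first place and of -2.04 to -1.01 at the second.

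**Figure D4:**
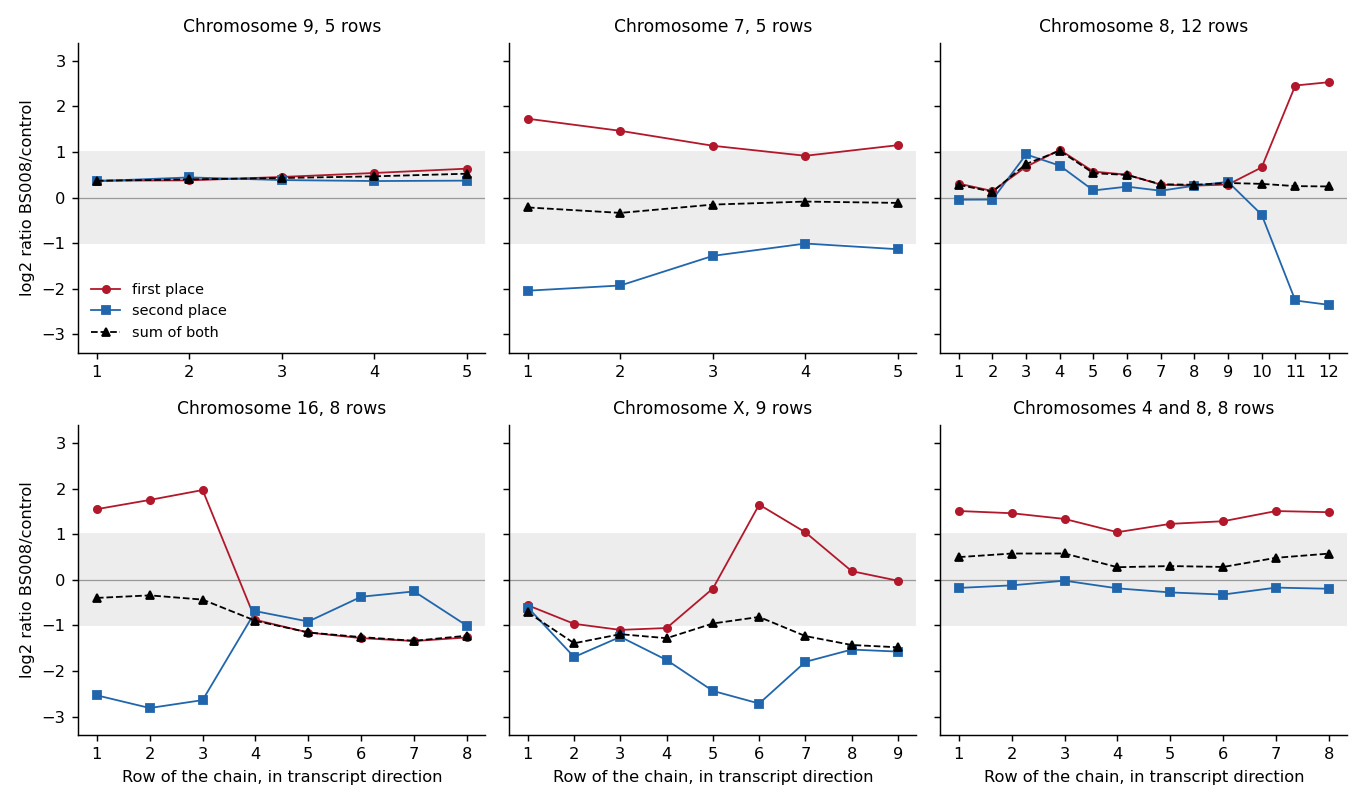
Log2 ratio of BS008 to control for each row along 6 chains, in transcript direction of the first place (red circles), at the second place (blue squares) and for the sum of both (black triangles). The grey band marks changes under 2-fold. On chromosome 9 all values lie together at 0.36 to 0.64, on chromosomes 7, 8, 16 and X both places part in all or some rows while the sums vary less from row to row, and on chromosomes 4 and 8 the places are apart by a like amount in every row.

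In other chains with matched introns the share of a place moved by less than 10 points. On chromosome 9, a chain of 5 rows from 117085943 to 117088757 and from 117092714 to 117095534 had 16744 and 10899 reads in the control library and 22236 and 13703 in the BS008 library. The share of the first place was 60.6% (60.0 to 61.1%) and 61.9% (61.4 to 62.4%), and the log2 ratios were 0.46 and 0.38. On chromosome 5, a chain of 6 rows from 69359242 to 69366578 and from 70234666 to 70242003 held 56.3% (55.1 to 57.5%) and 60.5% (59.3 to 61.6%) at its first place, so the intervals did not overlap. On chromosome 16, 12 rows from 28734769 to 28747052 and from 28390901 to 28403176 held 63.7% (63.2 to 64.2%) and 67.3% (66.9 to 67.8%), and in 11 of these rows both copies were higher. The exception was row 6, in which the first place went from 2199 to 3706 reads and the second from 1555 to 1112, and the share of the first went from 58.6% to 76.9%. A chain of 4 rows on chromosome 15 had 38547 and 60150 reads from 83205504 to 83208893 and 1715 and 3308 from 82821161 to 82824550, with log2 ratios of 0.69 and 0.99.

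Some copies had exactly the same count in a library. Of the pairs with matched introns in which each copy had at least 20 reads, 106 of 2918 (3.63%) had equal counts in the control library and 122 of 5015 (2.43%) in the BS008 library. Without matched introns these were 25 of 6489 (0.39%) and 34 of 6431 (0.53%). Of the 106 pairs that were equal in the control library, 93 were unequal in the BS008 library, and in 19 the log2 ratios of both copies differed by at least 1.

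A chain of 8 rows on chromosome 8 had this pattern in every row. The places from 145298397 to 145303932 and from 145467450 to 145472985 had 418 reads each in the control library, and 44, 42, 59, 37, 45, 85, 65 and 41 reads on their rows at both. In BS008-treated cells they had 185 and 45 reads, and the share of the first place was 80.4% (74.8 to 85.0%). On chromosome 2, a chain of 13 rows from 110582407 to 110615489 and from 111271172 to 111304254 had equal counts in the control library on its first 9 rows. In rows 5 to 7 these were 60, 57 and 74 reads at each place. In BS008-treated cells the same rows had 15, 3 and 7 reads at the first place and 156, 144 and 199 at the second. How the counting treated reads that fit several places is not given in the sources used here, and its part in these values was not tested.

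The chain with the most reads of all had no matched introns and lay on chromosome 4, where 8 rows from 74276029 to 74285356 went from 180257 to 214404 reads (log2 ratio 0.30) and their match from 74309064 to 74319614 from 84055 to 55000 (-0.56). All 8 rows were above 0 at the first place, at 0.22 to 0.52, and all were below 0 at the second, at -0.72 to -0.27. The share of the first place was 68.2% in the control library and 79.6% in the BS008 library. On chromosomes 14 and 6, a chain of 3 rows went from 21942 to 13125 and from 30092 to 31954 reads, with log2 ratios of -0.69 and 0.14.

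Among chains of at least 5 rows without matched introns, 2 were picked after their values were seen, from those with the largest moves in share. On chromosome 4, all 8 rows from 84508408 to 84519876 were higher, at log2 ratios of 1.04 to 1.51, while the matching rows on chromosome 8, from 41468255 to 41476496, were at -0.32 to -0.02. On chromosome 9, 5 rows from 130865960 to 130869458 went from 416 to 1974 reads (2.22), and those on chromosome 19 from 6444162 to 6454728 from 368 to 139 (-1.20). A chain of 4 rows held 1 of the 10 sets in which a row differed most from its sum. On chromosome 14, all its rows from 68112360 to 68114900 were higher, 665 reads becoming 2281, and on chromosome 6, from 131902359 to 131904631, 365 reads became 28. Its 137 bp rows formed the only set among these 10 whose chain had no matched introns at all.

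The largest changes of summed copies came mostly from single places. The largest rise was in a set of 88 bp rows, in which the row on chromosome 12 from 49258566 to 49258653 went from 35 to 855 reads, that on chromosome 11 from 66833367 to 66833454 from 33 to 45, and that on chromosome 17 from 41177977 to 41178064 had none. The sum had a log2 ratio of 3.33. A further rise was shared by 3 places of a set of 163 bp rows. Reads went from 24 to 370 on chromosome 5 from 90669931 to 90670093, from 18 to 95 on chromosome 15 from 98513113 to 98513275 and from 14 to 54 on chromosome 19 from 18121005 to 18121167, and the log2 ratio of the sum was 2.75. The largest fall at this pseudocount was in a set of 130 bp rows, with 158 and 12 reads on chromosome 9 from 107555452 to 107555581 and 11 and 1 on chromosome 19 from 1058617 to 1058746 (log2 ratio -2.26 for the sum). The order of the falls changed with the pseudocount. At 0.1 a set of 98 bp rows was lowest (-3.72, against -3.20), and at 1 sets of 110 and 173 bp rows were lower (-1.98 and -1.90, against -1.70). In the falls on chromosomes 3 and 7 that followed, a single place held at least 95.1% of the reads in both libraries.

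The sums of the 5 sets with the most copies had log2 ratios between -0.44 and 0.79. The largest had 416 rows of 54 bp on 14 chromosomes, of which 109 had reads in the control library and 103 in the BS008 library, and its sum went from 11259 to 8225 reads (log2 ratio -0.40). A set of 156 rows of 173 bp on 2 chromosomes had reads on 155 of them in the control library and on all 156 in the BS008 library, with sums of 12347 and 12097 (0.02), while the share of 1 copy moved by 21.4 percentage points. The others had 155 rows of 72 bp (log2 ratio -0.44), 121 rows of 52 bp on a single chromosome (0.79) and 110 rows of 84 bp (0.03).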

How the data were processed

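The authors deposited raw counts of reads for each exon row and the same values as RPKM (per the file headers), with coordinates on hg19 per the labels. RPKM was recomputed from the counts as a check only. The aligner, the counting tool and its treatment of reads that fit several places are not given in the sources used here. Groups came from the treatment recorded for each sample. A general treatment note in the record of the control names BS008 as well and was not used.

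Runs, copy sets and chains were built from coordinates with Python 3.11.15, numpy 2.4.6, pandas 2.3.3 and scipy 1.17.1, and the scripts were tested on simulated data. CPM used the library total. Shares carry 95% Wilson intervals. Alternative scales were TMM factors (edgeR 4.0.16) and DESeq2 1.42.0 size factors. The pseudocount pulls ratios of low counts toward 0. Members, lists and named rows were chosen with earlier results of these data known. Named, where the higher library had 100 or more counts, were the 10 copy sets (1 per chain) in which a row differed most from its sum, the 10 chains with most reads, the 5 largest rises and 5 largest falls of a sum, and the 5 sets with most copies. Other chains were chosen after their values were seen. Not all of the named sets and chains are described above. Among the chains with most reads, those left out include several with nearly all reads on 1 place in both libraries.

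No annotation or genome of hg19 was used here, so rows carry no gene names, no sequence is shown, and the planned lookup of duplicated genes and check of cell type markers were not run. A match of exon and intron lengths to GENCODE genes on GRCh38 had been tried after the data were seen. Because this link crosses genome builds it was removed and no value from it is shown, but its results had been seen when the chains to describe were chosen.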

Additional observations from a re-analysis of the deposited data

How the results depend on the processing

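No paired analysis was possible because each condition had 1 library, and for the same reason no replicate could be left out. The counts of changed rows and sets, in the order member rows higher, member rows lower, sets higher, sets lower, and changed rows with a sum under the threshold, came to 1557, 1818, 564, 666 and 1926 when 0.1 was added as the pseudocount, and to 325, 411, 165, 202 and 377 when 1 was added. They were 1957, 2756, 887, 1530 and 1834 at 1.5-fold, and 70, 40, 30, 6 and 75 at 4-fold. With gaps under 1 kb they were 205, 146, 81, 65 and 184, with rows of at least 100 bp 270, 337, 121, 150 and 303, with runs of 5 rows 370, 368, 151, 180 and 371, and with introns matched as well 250, 153, 70, 45 and 263. A count minimum of 100 left 404 rows higher. The members numbered 8047 with gaps under 1 kb, 15882 with rows of at least 100 bp, 24611 and 18176 with runs of 4 and 5 rows, and 7026 with matched introns. Copy sets with a moved share numbered 495, 1117, 1690, 1206 and 447 under these settings, 1588 with at least 100 reads in each library, and 947 at 20 percentage points. The median absolute log2 ratios of rows and of sets were 0.48 and 0.40 with a pseudocount of 0.1, 0.25 and 0.26 with 1, 0.24 and 0.27 without a count minimum, 0.40 and 0.34 with a minimum of 100, 0.35 and 0.33 without mitochondrial rows, 0.35 and 0.34 with rows of at least 100 bp, 0.35 and 0.33 with runs of 4, 0.35 and 0.33 with runs of 5, 0.41 and 0.37 with matched introns, and 0.35 for rows with gaps under 1 kb. TMM and DESeq2 factors and gaps under 100 kb kept every count within 1.5 times. With TMM factors 655 member rows were higher and 649 lower, and 293 and 284 sets, so the larger number of lower calls was not kept. Chains with a control share of 10 to 90% had a moved share in 33.2% without matched introns and 33.9% with them, against 14.0% and 29.8% of all such chains. Of 90 alternative values of named rows and sums, 13 moved beyond counting error, each with a pseudocount of 0.1, and 0 changed sign. With 1 library per condition, the spread between cultures is unknown.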
